A study of Mus musculus with 2 samples.

Results

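Interferon-stimulated genes are the genes that a cell switches on when it senses interferon, and 34 of them were chosen here by symbol from a list of well-known members. The table of 24862 genes listed 32 of the 34 under these symbols, while Mx1 and Mx2 were not analysed here. All 32 had 10 or more counts in at least 1 library, as did 18911 of the 24862 genes. RNA sequencing compared the GFP+ cells of 2 genotypes of male mice aged 3 weeks, Sox9 PreASKO and, as the control, Sox9 floxed, both given doxycycline on postnatal day 1. The cells came from the stromal vascular fraction of inguinal white fat, which holds the tissue's cells other than fat-laden adipocytes, and GFP is taken in the series' design text to mark cells with Pref-1, an early adipose precursor protein encoded by Dlk1. The labels do not name the promoter that drives recombination or the GFP reporter. Each genotype is 1 library from pooled mice, 6 in number per the design text, which does not say whether that is per genotype. With 1 library a group there is no replicate check and no test, and the values in parentheses bound a ratio at 95% for counting error alone. They do not cover error in how reads were assigned to genes.

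Type I interferons bind a receptor on the cell surface whose kinases activate transcription factors, STAT2 among them. STAT2 acts with IRF9 in a complex that binds interferon-stimulated response elements near its target genes. Many targets encode sensors of viral RNA, enzymes that block viral replication, or brakes on the response, and in adipose tissue both stromal cells and resident macrophages can respond.

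The response element leaves a plain mark in the DNA, so the promoters of 5 members on which the results below turn are printed first. They were chosen after their values were seen, Ifit1, Ifit3 and Isg15 as members lower in PreASKO and Oas3 and Gbp2 as members higher there. Each window runs from 250 bases before to 50 bases after a start annotated in RefSeq on GRCm38.p6, 5′ to 3′ on the gene's strand. For Ifit3 and Oas3 that start lies inside the annotated span of the gene. The windows are chr19:34640639-34640938 (plus strand) for Ifit1, chr19:34583279-34583578 (plus) for Ifit3, chr4:156200769-156201068 (minus) for Isg15, chr5:120777610-120777909 (minus) for Oas3 and chr3:142620413-142620712 (plus) for Gbp2. Capitals mark the core motif of the response element on either strand, GAAA followed after any 2 bases by a second GAAA (on the other strand TTTC, any 2 bases, TTTC).
Ifit1: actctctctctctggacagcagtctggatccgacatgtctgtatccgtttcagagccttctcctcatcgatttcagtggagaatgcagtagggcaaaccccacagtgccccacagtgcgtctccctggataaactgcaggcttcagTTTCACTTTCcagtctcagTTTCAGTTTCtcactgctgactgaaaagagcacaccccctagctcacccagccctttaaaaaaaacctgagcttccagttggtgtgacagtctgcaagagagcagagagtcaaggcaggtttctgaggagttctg
Ifit3: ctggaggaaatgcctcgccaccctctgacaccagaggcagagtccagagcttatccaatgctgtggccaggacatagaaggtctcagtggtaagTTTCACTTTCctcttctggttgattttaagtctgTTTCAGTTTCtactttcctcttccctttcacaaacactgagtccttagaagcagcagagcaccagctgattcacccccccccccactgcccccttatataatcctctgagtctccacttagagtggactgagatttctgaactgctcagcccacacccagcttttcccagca
Isg15: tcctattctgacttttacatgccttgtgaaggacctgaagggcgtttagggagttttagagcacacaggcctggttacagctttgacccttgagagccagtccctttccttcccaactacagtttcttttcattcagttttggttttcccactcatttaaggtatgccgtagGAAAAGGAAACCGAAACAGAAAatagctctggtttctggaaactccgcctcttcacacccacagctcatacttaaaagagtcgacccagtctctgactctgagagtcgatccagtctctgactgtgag
Oas3: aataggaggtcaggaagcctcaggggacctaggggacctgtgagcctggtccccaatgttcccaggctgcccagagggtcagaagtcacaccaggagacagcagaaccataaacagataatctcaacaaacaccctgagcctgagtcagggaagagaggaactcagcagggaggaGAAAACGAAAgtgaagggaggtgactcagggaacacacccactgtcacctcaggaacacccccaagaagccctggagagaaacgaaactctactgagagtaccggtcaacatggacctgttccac
Gbp2: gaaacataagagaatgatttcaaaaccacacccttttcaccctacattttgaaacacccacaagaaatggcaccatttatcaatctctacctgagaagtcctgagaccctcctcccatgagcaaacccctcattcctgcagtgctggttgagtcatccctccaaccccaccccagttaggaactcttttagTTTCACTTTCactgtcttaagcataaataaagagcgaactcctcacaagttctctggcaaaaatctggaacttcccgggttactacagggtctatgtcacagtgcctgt

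In Ifit1 the motif lies 104 and 85 bases before the start, and in Ifit3 156 and 122 bases before the start that its window uses. The span of Ifit3 begins at 34583119, before its window does, so both matches lie inside the annotated gene. In Isg15 there are 3 overlapping matches, so that the capitals form 1 run, and Oas3 and Gbp2 have 1 match each. Of the 25 members with a window in the RefSeq table, 12 held the motif and 13 did not, and 42.9% of their 28 windows had it, against 3.44% of all 32851 promoter windows. Members with this exact motif in a window had a median ratio of PreASKO over floxed of 1.09, with 8 of 12 above 1. Those without it had a median of 1.04, with 9 of 13 above 1. The remaining members had no window. An element of another spacing or outside the window would be missed, and the part of response elements in the direction was not tested.

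The PreASKO library held 29172653 counts and the floxed library 37705236. Levels are in CPM, the count scaled to a library total of 1000000, and a ratio is that of PreASKO over floxed. Sox9, the targeted gene, had 2.50 CPM in PreASKO, against 6.05 CPM in floxed cells, a ratio of 0.414 (0.314 to 0.541). Dlk1 was present in both, at 24.0 CPM in PreASKO and 28.2 CPM in floxed cells. The 11 adipose stromal markers, among them Pdgfra and Cd34, summed to 12863 CPM in PreASKO and 22382 CPM in floxed cells, and all 11 had ratios below 1. The 14 macrophage markers, among them Csf1r and Lyz2, summed to 20119 CPM in PreASKO and 13469 CPM in floxed cells, and all 14 were above 1. So were all 10 of them with enough raw counts, in raw counts alone. Both libraries thus carried RNA of a cell type that the labels do not name, and its amount differed between them. In such bulk samples, fewer cells of a type and less RNA per cell cannot be told apart.

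The 32 members split by direction and, with 1 exception, stayed within 1.5-fold. In PreASKO 21 (65.6%) had a ratio above 1, against 45.8% of all genes with 10 or more counts, and 11 (34.4%) a ratio below 1, against 54.2%. Ifit1 alone was over 1.5-fold lower, where 26.8% of all genes were, and no member was over 1.5-fold higher, where 16.0% of all genes were. No member passed 2-fold in either direction, the limit named in the design text, where 9.08% of all genes were higher and 18.2% lower. Every member had 100 or more counts in a library, and among the 12982 genes of that depth 17.2% were over 1.5-fold lower and 10.7% over 1.5-fold higher. Counting intervals lay wholly above 1 for 15 members (46.9%), wholly below 1 for 9 (28.1%), and included 1 for 8. Of all genes with 10 or more counts, 33.2% had an interval above 1 and 39.9% one below 1. Intervals narrow with depth, and these shares were not calculated for genes with 100 or more counts. The members' median log2 ratio was 0.08, with quartiles of -0.26 and 0.29, and over all genes it was -0.07, with quartiles of -0.65 and 0.35. Summed over the members, the level was 1798 CPM in PreASKO and 1760.3 CPM in floxed cells.

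**Figure D1:**
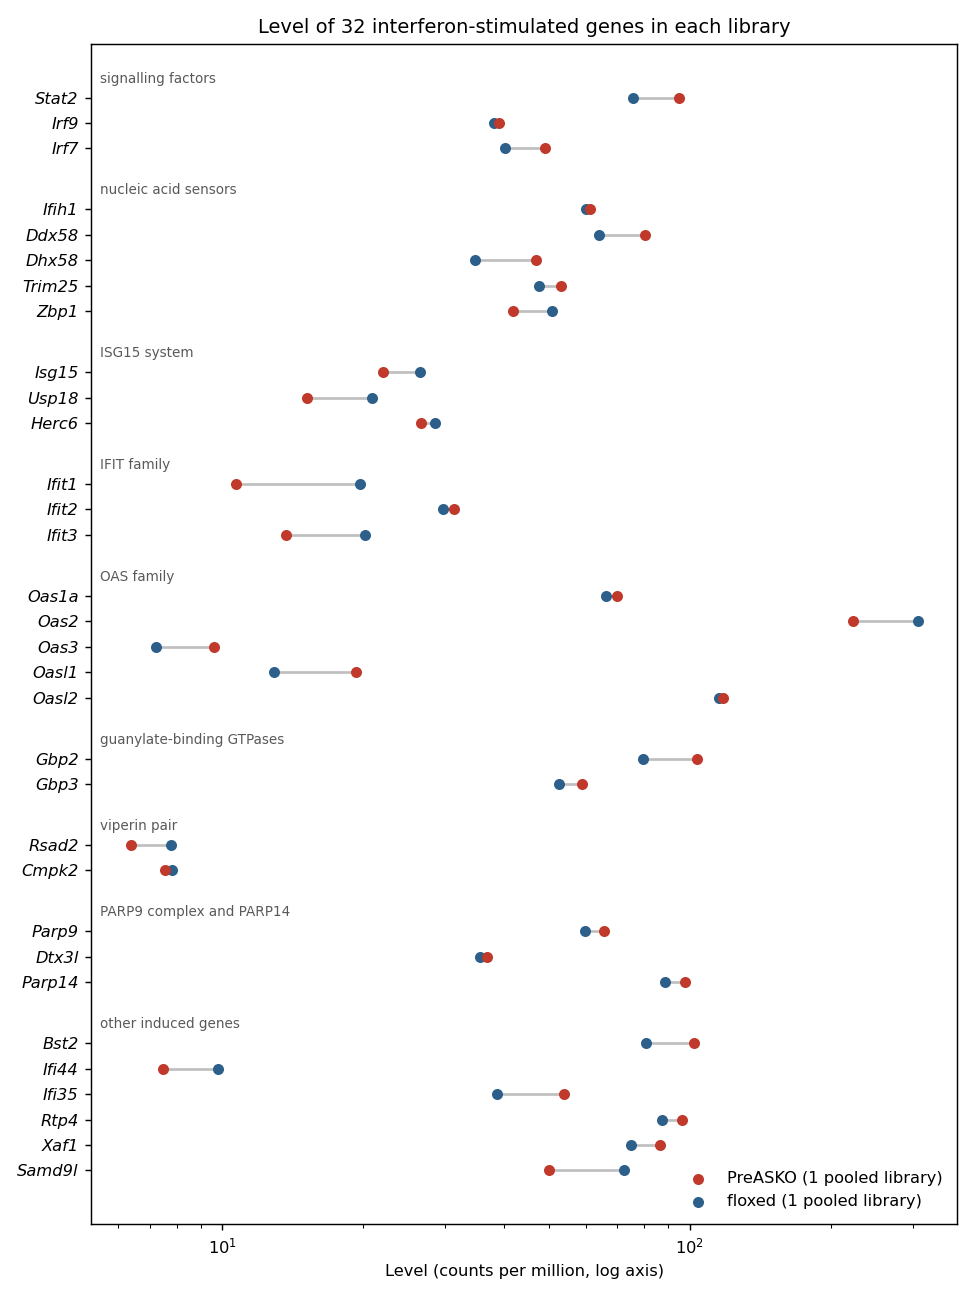
Level of each of the 32 listed interferon-stimulated genes in CPM (log axis), grouped by role, with 1 point for the PreASKO library and 1 for the floxed library. Oas2 lies farthest to the right, at 223 CPM in PreASKO and 308 CPM in floxed cells, and the points of most other genes lie close together.

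Per kilobase of exon, the measure that allows genes to be compared, Bst2 was the most abundant member, at 113 CPM per kb in PreASKO and 89.3 in floxed cells. Bst2 encodes tetherin, which holds budding viruses at the cell surface. Oas2 was next, at 50.2 CPM per kb in PreASKO and 69.1 in floxed cells, followed by Rtp4 at 45.2 and 40.9. At the low end were Ifi44, with 1.22 CPM per kb in PreASKO and 1.60 in floxed cells, and Oas3, with 1.36 and 1.02. Their places at the low end were thus reversed between the libraries, while Bst2, Oas2 and Rtp4 kept theirs. Exon lengths came from GENCODE M21 on GRCm38 and count every annotated exon, which may exceed what these cells use.

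The signalling factors were at or above equal levels. Stat2, the STAT of the type I response, stood at 94.8 CPM in PreASKO and 75.7 CPM in floxed cells, a ratio of 1.25 (1.19 to 1.32). Irf7, which amplifies interferon production and is itself induced, stood at 48.9 CPM in PreASKO and 40.3 CPM in floxed cells, a ratio of 1.21 (1.13 to 1.30). Irf9, the DNA-binding partner of STAT2, differed little in summed counts, at 39.1 CPM in PreASKO and 38.1 CPM in floxed cells, and its interval of 0.950 to 1.11 included 1. Its few raw counts, 30 in PreASKO and 21 in floxed cells, gave a ratio of 1.90 (1.05 to 3.495).

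Of the sensors, 4 had ratios above 1. Dhx58, which encodes LGP2, a helicase that tunes RNA sensing, stood at 46.9 CPM in PreASKO and 34.8 CPM in floxed cells, a ratio of 1.35 (1.25 to 1.46). Ddx58, which encodes the viral RNA sensor RIG-I, stood at 80.1 CPM in PreASKO and 63.9 CPM in floxed cells, a ratio of 1.25 (1.18 to 1.33). Trim25, a ubiquitin ligase that acts with RIG-I, had a ratio of 1.12 (1.04 to 1.20). Ifih1, which encodes the long RNA sensor MDA5, stood at 61.2 CPM in PreASKO and 59.9 CPM in floxed cells, with an interval of 0.960 to 1.09. Its raw counts alone, 227 in PreASKO and 229 in floxed cells, gave a ratio of 1.32 (1.09 to 1.59), which lies above 1. Zbp1, a sensor of Z-form nucleic acid that can start cell death, was the lower one, at 41.8 CPM in PreASKO and 50.8 CPM in floxed cells, a ratio of 0.823 (0.765 to 0.885).

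The 3 members of the ISG15 system all had ratios below 1. Isg15 is a ubiquitin-like protein attached to other proteins, Herc6 is its ligase in mice, and Usp18 removes it and also blocks the interferon receptor. Usp18 stood at 15.2 CPM in PreASKO and 20.9 CPM in floxed cells, a ratio of 0.728 (0.646 to 0.818). Isg15 stood at 22.1 CPM in PreASKO and 26.4 CPM in floxed cells, a ratio of 0.836 (0.756 to 0.924). The interval of Herc6, at 26.6 CPM in PreASKO and 28.6 CPM in floxed cells, was 0.848 to 1.02. Outside the chosen members, the activating enzyme gene Uba7 had a ratio of 0.713 and the conjugating enzyme gene Ube2l6 one of 1.93, so the enzymes of this pathway did not share a direction. Uba7 was picked after its value was seen.

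The IFIT genes encode proteins that bind viral RNA and hinder its translation, and they lie side by side on chromosome 19. Ifit1 (gene ID 15957, 34640889 to 34650009 in GRCm38) had the lowest ratio of the 32 members, at 10.7 CPM in PreASKO and 19.8 CPM in floxed cells, from 313 and 745 counts, a ratio of 0.543 (0.474 to 0.620). Ifit3 (gene ID 15959, 34583119 to 34588982) stood at 13.7 CPM in PreASKO and 20.2 CPM in floxed cells, a ratio of 0.677 (0.598 to 0.765). Ifit2 (gene ID 15958, 34550550 to 34576534), in the same cluster, stood at 31.3 CPM in PreASKO and 29.6 CPM in floxed cells, and its interval of 0.966 to 1.15 included 1. Per count of Ifit2, the count of Ifit1 was 0.343 in PreASKO and 0.667 in floxed cells, a ratio of 0.515 (0.438 to 0.605) that does not depend on how the libraries are scaled. In raw counts alone that ratio was 0.666, since Ifit2 then fell below 1, at 0.840 (0.716 to 0.985). Of the counts of Ifit3, 99.9% were repeat-distributed. Ifit3 has a near-identical neighbour, Ifit3b, with which reads may be shared. The 2 genes summed to 21.9 CPM in PreASKO and 33.9 CPM in floxed cells, a ratio of 0.646 (0.586 to 0.711). Ifit1 lies within the annotated span of Ifit1bl1, which had 82 counts in PreASKO and 121 in floxed cells.

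**Figure D2:**
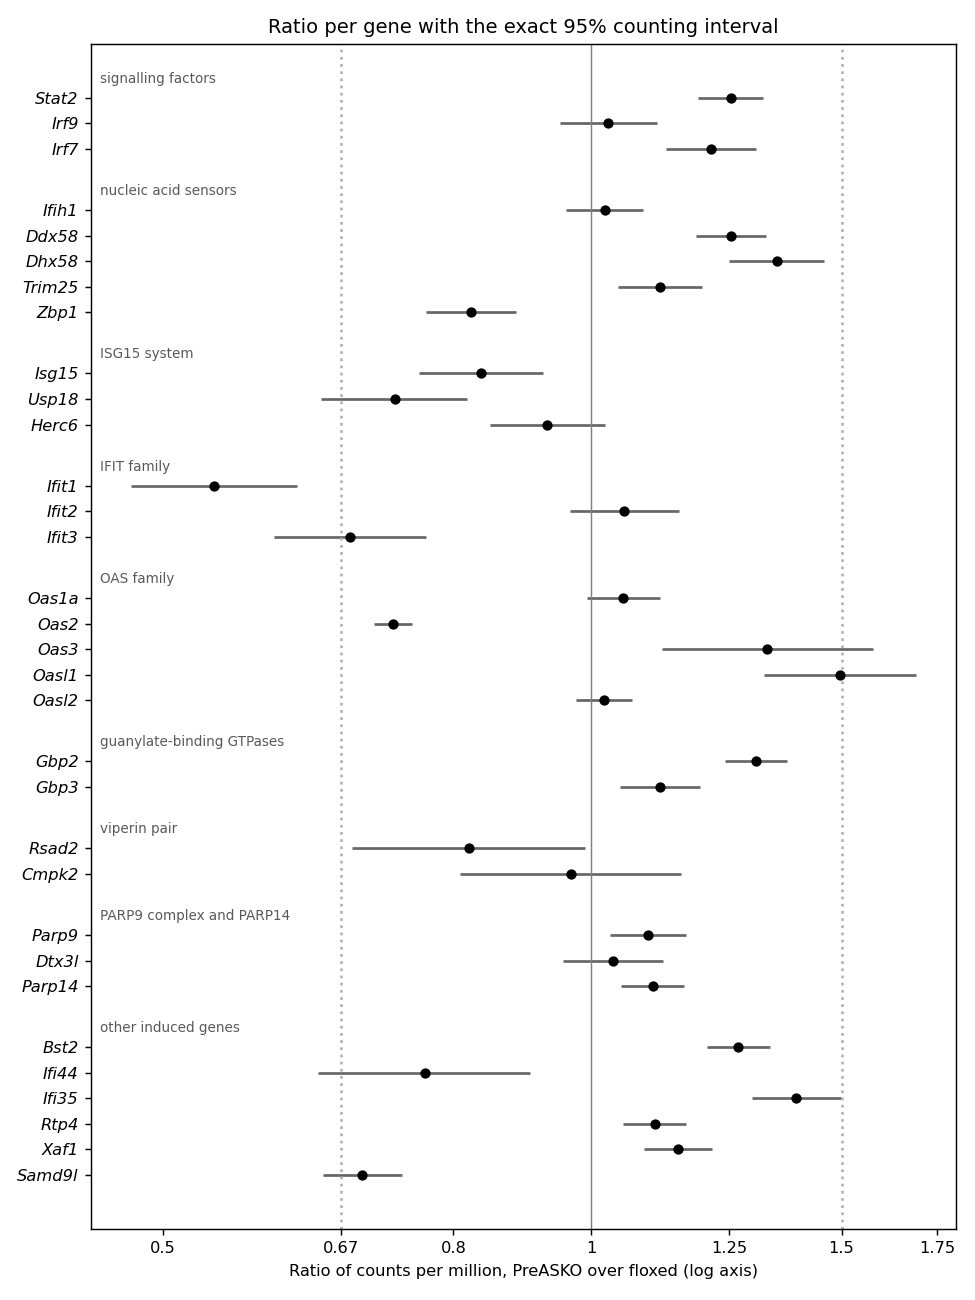
Ratio of CPM, PreASKO over floxed, of each member (point, log axis) with its exact 95% counting interval (bar), and dotted lines at 1.5-fold. Ifit1 is the one point left of the lower dotted line, and Oasl1, at 1.496, lies just inside the upper one.

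The OAS family makes a second messenger that activates an RNA-cutting enzyme, and its members differed widely in ratio. Oas2 stood at 223 CPM in PreASKO and 308 CPM in floxed cells, from 6514 and 11601 counts, a ratio of 0.726 (0.704 to 0.748). Most of its counts were of the kind the authors distributed over repeats, however, and the raw counts alone, 1296 in PreASKO and 1671 in floxed cells, gave a ratio of 1.03 (0.959 to 1.11). Oas2 was thus lower in PreASKO only with the repeat-distributed counts included, and the interval from raw counts alone included 1. The sources used here do not define the repeat-distributed counts further. Its neighbour Oas3, on chromosome 5 and counted from raw reads alone, stood at 9.63 CPM in PreASKO and 7.24 CPM in floxed cells, a ratio of 1.33 (1.12 to 1.58). Oas1a lay within counting error of equal levels (0.993 to 1.12), at 69.7 CPM in PreASKO and 66.2 CPM in floxed cells. Summed with its close paralogue Oas1g, it had a ratio of 1.11 (1.06 to 1.16).

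Of the OAS-like genes, Oasl1 is known in mice to restrain production of IRF7 protein. Oasl1 stood at 19.4 CPM in PreASKO and 12.9 CPM in floxed cells, a ratio of 1.496 (1.32 to 1.69), just inside 1.5-fold. On the log2 scale that is 0.58, and with TMM scaling it was 0.62, past 1.5-fold. Oasl2, beside it on chromosome 5, stood at 118 CPM in PreASKO and 115 CPM in floxed cells, with an interval of 0.976 to 1.07. Per count of Oasl2 there were 0.165 counts of Oasl1 in PreASKO and 0.112 in floxed cells, a ratio of 1.47 (1.29 to 1.67). All counts of both genes were repeat-distributed.

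**Figure D3:**
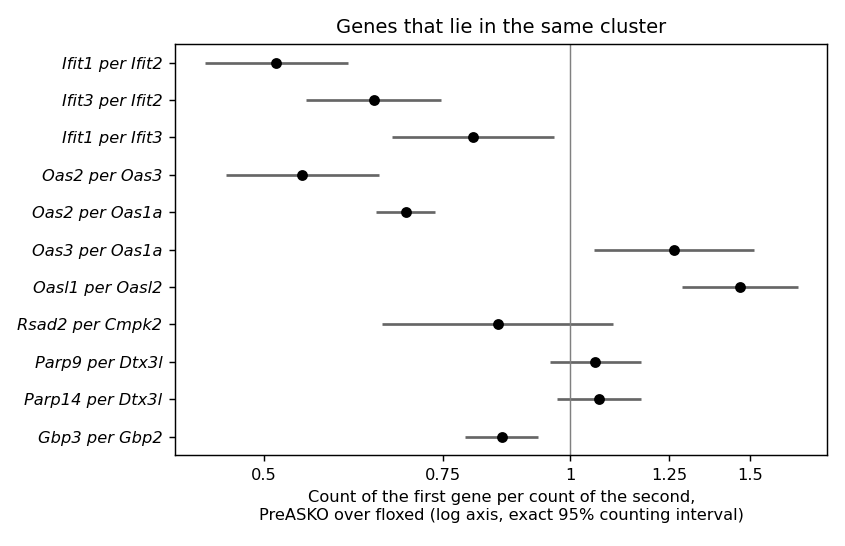
For pairs of members that lie in the same gene cluster, the count of the first gene per count of the second, as PreASKO over floxed (point, log axis) with the exact 95% counting interval (bar). Ifit1 per Ifit2 and Oas2 per Oas3 lie near 0.5, whereas Parp9 per Dtx3l and Parp14 per Dtx3l lie at 1.06 and 1.07 with intervals that include 1. All points are from summed counts. In raw counts alone Ifit1 per Ifit2 was 0.666 and Oas2 per Oas3 0.754. Oas2 per Oas1a then moved from 0.689 to 1.14, and Gbp3 per Gbp2 from 0.856 to 2.18.

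For the next 2 sets of neighbours, the count of one gene per count of the other had an interval that included 1. Rsad2, which encodes viperin, a maker of an antiviral nucleotide, stood at 6.38 CPM in PreASKO and 7.77 CPM in floxed cells, a ratio of 0.821 (0.679 to 0.989). Cmpk2, the adjacent gene for a mitochondrial nucleotide kinase, stood at 7.54 CPM in PreASKO and 7.80 CPM in floxed cells, and Rsad2 per Cmpk2 had an interval of 0.653 to 1.10. Parp9 and Dtx3l encode the partners of an ADP-ribosylating ubiquitin ligase, and Parp14 a related ADP-ribosyltransferase nearby. Their ratios were 1.10 (1.03 to 1.16) for Parp9, 1.04 (0.955 to 1.12) for Dtx3l and 1.11 (1.05 to 1.16) for Parp14. Parp9 and Dtx3l share 558 bases of annotated sequence, and the sources used here do not say whether counting used strand.

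The guanylate-binding genes, induced by both interferon types, were above equal levels. Gbp2 stood at 104 CPM in PreASKO and 79.5 CPM in floxed cells, a ratio of 1.31 (1.24 to 1.37). Gbp3, on the same chromosome, stood at 58.8 CPM in PreASKO and 52.6 CPM in floxed cells, a ratio of 1.12 (1.05 to 1.19). Relatives outside the chosen members went both ways. Gbp4 had a ratio of 1.44 (1.25 to 1.65) and Gbp8 one of 1.16 (1.04 to 1.29). Gbp2b was lower, at 0.555 (0.475 to 0.648), as were Gbp10 at 0.604 (0.524 to 0.696) and Gbp6 at 0.841 (0.756 to 0.936). The intervals of Gbp5, Gbp7, Gbp9 and Gbp11 included 1, and reads may be shared among these similar genes.

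Of the other 6 members, 4 were higher and 2 lower. Ifi35, whose product binds the interferon-induced protein NMI, stood at 53.9 CPM in PreASKO and 38.6 CPM in floxed cells, a ratio of 1.39 (1.30 to 1.498). Bst2, described above, had 102 CPM in PreASKO and 80.7 CPM in floxed cells, a ratio of 1.27 (1.21 to 1.33). Xaf1, a partner of the apoptosis inhibitor XIAP, had a ratio of 1.15 (1.09 to 1.21), and Rtp4, a chaperone-like protein of membrane receptors, one of 1.11 (1.05 to 1.17). Samd9l, a restriction factor that blocks poxviruses, stood at 49.9 CPM in PreASKO and 72.3 CPM in floxed cells, a ratio of 0.690 (0.647 to 0.736). Ifi44 stood at 7.47 CPM in PreASKO and 9.79 CPM in floxed cells, a ratio of 0.764 (0.643 to 0.905). All counts of Samd9l, Ifi44 and Rtp4 were repeat-distributed, as were 99.8% of those of Xaf1, so their ratios rest on those estimates.

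How the authors' 2 kinds of counts were combined mattered for several members. For 12 members all counts were raw, and these held both Ifit1 and the higher genes Dhx58, Ifi35 and Gbp2. For 14 members over 90% of counts were repeat-distributed, and their intervals do not cover error in that distribution. With raw counts alone 22 members had 10 or more in a library, of which 13 were above and 9 below 1. Of all 11586 genes at that minimum, 5694 were above and 5892 below 1. Ifih1 and Oas2 moved as given above, Zbp1 stood at 0.744 (0.665 to 0.831), and the intervals of Rsad2 (0.726 to 1.11) and Oas1a (0.541 to 1.51, around 0.909) included 1. Ratios were then 1.90 (1.05 to 3.495) for Irf9, 3.33 (0.960 to 14.5) for Stat2 and 2.93 (1.33 to 6.93) for Gbp3. Each of these 3 rests on 30 or fewer raw counts in either library. In the authors' deposited table the fold was 0.543 for Ifit1, 0.731 for Oas2 and 1.52 for Oasl1.

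**Figure D4:**
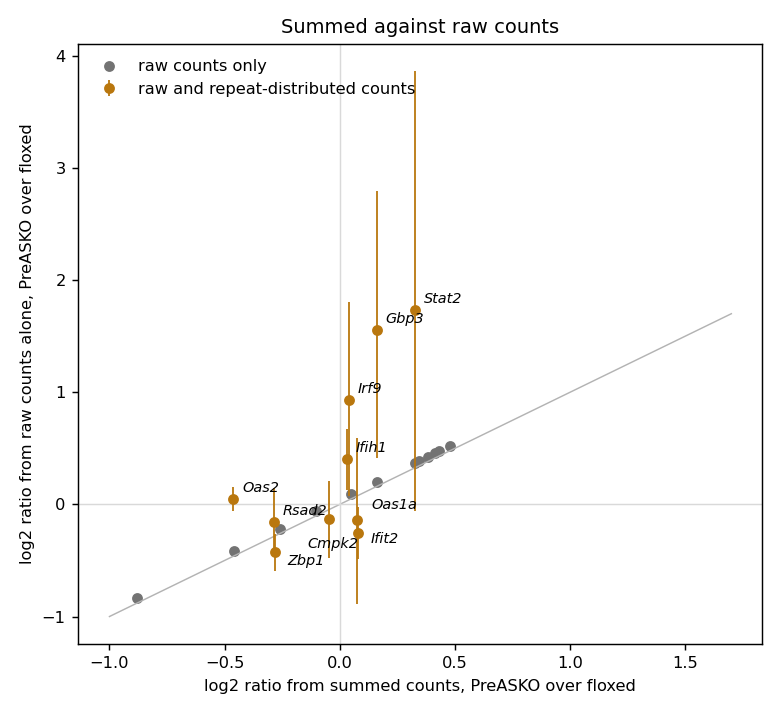
log2 ratio, PreASKO over floxed, from summed counts (x axis) and from raw counts alone (y axis) for the 22 members with 10 or more raw counts in a library, with 95% counting intervals for members of both count kinds and a line of equal values. Genes with raw counts only lie close to the line, Oas2 moves to 0.05 on the y axis, and Stat2, Gbp3 and Irf9 lie above the line with wide intervals.

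Upstream of the members, counts of the interferon genes themselves were at the limit of detection. Of 21 interferon genes, 3 were listed, Ifng, Ifnz and Ifnl2, with 3, 1 and 1 counts in PreASKO and none in floxed cells, at or under the floor of 3 counts (0.103 CPM in PreASKO and 0.0796 CPM in floxed cells). Of 9 receptor and kinase genes, 8 had 10 or more counts in a library, with 7 of the 8 above 1, none over 1.5-fold and a median log2 ratio of 0.22. The other, Ifnlr1, the specific chain of the lambda receptor, had 0 counts in PreASKO and 6 in floxed cells, or 0.159 CPM there. Ifnar2, a chain of the type I receptor, stood at 415 CPM in PreASKO and 337 CPM in floxed cells, a ratio of 1.23 (1.20 to 1.26). From its raw counts the ratio was 1.02. Ifnar1, the other chain, stood at 170 CPM in PreASKO and 184 CPM in floxed cells, a ratio of 0.926 (0.892 to 0.960). The kinase genes Tyk2 and Jak1 had ratios of 1.30 and 1.10, and Ifngr1 and Ifngr2 of the gamma receptor 1.26 and 1.08. Il10rb, the chain that the lambda receptor shares with others, had 1.47.

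Among 9 transcription factors of the response, 7 were above 1, with a median log2 ratio of 0.23. Irf1 had a ratio of 1.27, Irf3 1.17, Irf5 1.32 and the class II transactivator gene Ciita 1.43. Irf8, a factor of macrophages and dendritic cells, was the one over 1.5-fold, at 73.5 CPM in PreASKO and 34.9 CPM in floxed cells, a ratio of 2.11 (1.97 to 2.26). All counts of Irf8 were repeat-distributed, so raw counts give no check of it.

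The 13 sensing adaptors, receptors and kinases had 10 above 1 and a median log2 ratio of 0.26. Tlr3, an endosomal receptor for double-stranded RNA, was the one over 1.5-fold lower, at 18.3 CPM in PreASKO and 33.3 CPM in floxed cells, a ratio of 0.549 (0.496 to 0.608). Tlr7, its counterpart for single-stranded RNA, stood at 146 CPM in PreASKO and 94.3 CPM in floxed cells, a ratio of 1.55 (1.48 to 1.62). Traf3, an adaptor, had a ratio of 1.64, and Mavs, the adaptor of the RNA sensors, was at 60.7 CPM in PreASKO and 60.9 CPM in floxed cells. All counts of Tlr3, Tlr7, Traf3 and Mavs were repeat-distributed, so raw counts give no check of them. All 10 negative regulators were above 1 in summed counts, with a median log2 ratio of 0.38, led by Socs3 at 1.61, the DNA exonuclease gene Trex1 at 1.57 and Pias1 at 1.42. In raw counts alone 3 of 5 were above 1, and Socs3 and Trex1 had no raw counts.

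Further induced genes also went both ways. Of 52 genes, 29 were above and 23 below 1, with a median log2 ratio of 0.12, 6 over 1.5-fold higher and 2 over 1.5-fold lower. Slfn1 had a ratio of 2.32 (1.80 to 3.00) and Ifitm1, a membrane protein that blocks viral entry, 1.72. Genes that respond chiefly to interferon gamma, including antigen processing genes, had 15 of 26 above 1 and a median log2 ratio of 0.06, with 2 over 1.5-fold higher and 2 over 1.5-fold lower. In that list Cxcl9, a T cell attractant, stood at 202 CPM in PreASKO and 112 CPM in floxed cells, a ratio of 1.80 (1.73 to 1.88).

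Markers of several other cell types had medians farther from 0. The median log2 ratio of the macrophage markers was 0.50 and that of the adipose stromal markers -0.73, while the members' was 0.08. Neutrophil markers had a median of 2.23, with 9 of 10 above 1, and summed to 299.7 CPM in PreASKO and 126 CPM in floxed cells. They ranged widely. Csf3r was lower, at a ratio of 0.830 (0.764 to 0.902), and Mpo near equal, at 1.005. Cxcr2, all of it repeat-distributed, held 159 CPM of the sum in PreASKO and 62.8 CPM in floxed cells. Lymphocyte markers had a median of 0.29. Endothelial markers had a median of 0.05, mesothelial markers one of -5.63, with a summed level of 5.005 CPM in PreASKO and 175 CPM in floxed cells. In raw counts alone the endothelial median was -0.20, with 3 above and 3 below 1, and the lymphocyte median 0.16. The medians of the other marker lists kept their signs. Of 6 markers of plasmacytoid dendritic cells, a main source of type I interferon, Siglech stood at 40.6 CPM in PreASKO and 32.3 CPM in floxed cells, a ratio of 1.26, and Spib had a ratio of 1.87. The other 4 were lower, with ratios of 0.155 for Ccr9, 0.210 for Klk1, 0.314 for Cox6a2 and 0.323 for Pacsin1, at 0.926 CPM or less in PreASKO and 2.94 CPM or less in floxed cells. The median log2 ratio of these 6 was -1.65. No marker of these 7 lists was at 0 in either library. The part of these cell types in the ratios of the members was not tested.

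**Figure D5:**
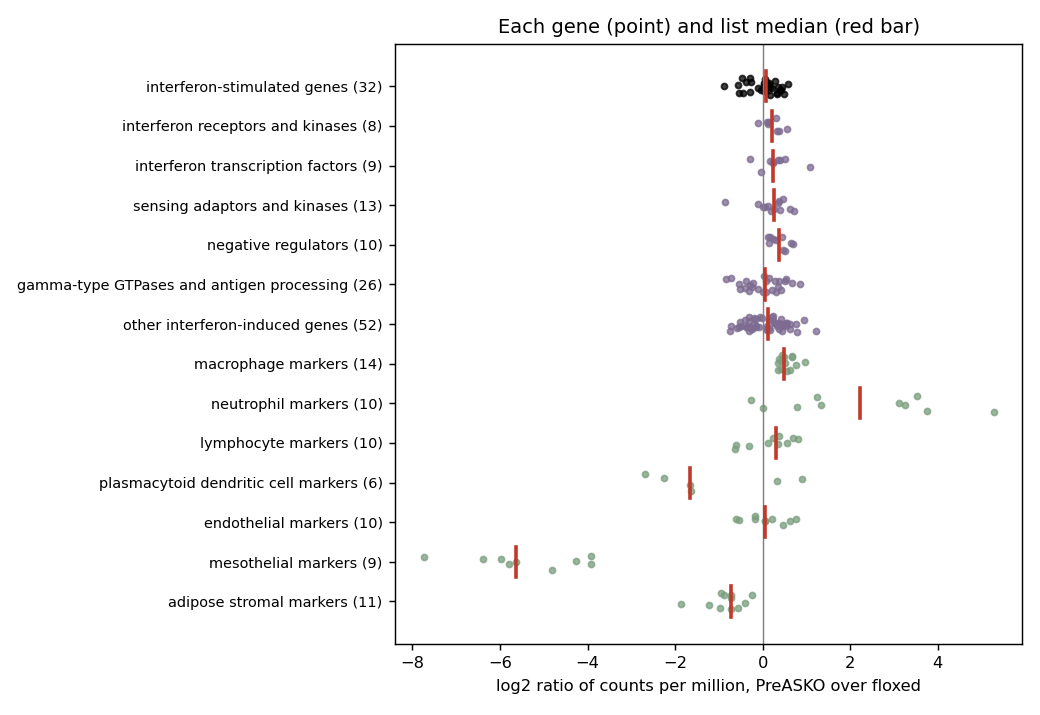
log2 ratio of CPM, PreASKO over floxed, of each gene (point) in the interferon-stimulated genes, 6 pathway lists and 7 cell type marker lists, with the number of genes with 10 or more counts in brackets and the median as a red bar. The interferon-stimulated genes lie between -0.88 and 0.58, the macrophage markers wholly above 0, and the adipose stromal and mesothelial markers wholly below 0.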

How the data were processed

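RNA of GFP+ cells from 1 Sox9 PreASKO and 1 Sox9 floxed library was analysed, with groups taken from the genotype label and columns matched through KO and WT in the sample titles. Per the file headers, the authors deposited for each gene a raw count, an estimated count distributed over repeats, their fold ratio and its log2. Reads were placed on mm10, per the submitters' processing notes, while the sources used here name no aligner or counter. Raw and repeat-distributed counts were summed, rounded and scaled to the library totals of 29172653 (PreASKO) and 37705236 (floxed), of which 50.6% and 49.1% were repeat-distributed. A minimum of 10 counts in 1 library or both was set. The ratio interval is the exact conditional one for a pair of counts, and no molecular identifiers are named in the labels, so it covers counting error only. It treats the repeat-distributed counts, which are estimates, as counted reads, so it is too narrow where that estimate is uncertain.

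Alternatives were TMM factors (edgeR 4.0.16), median-of-ratios factors (DESeq2 1.42.0), raw counts alone, a pseudocount of 1 or 0.1 and other count minimums. The authors' deposited fold was added after the data were seen. The members and lists were chosen with earlier results of these data known. Named were all members, core pathway genes, and of each pathway list the 3 largest absolute log2 ratios among genes with 100 or more counts. Of the core pathway genes, 1 is not reported here, and the list of transcription factors was summarised without it. Calculations ran in Python 3.11.15 with scipy 1.17.1 and were tested on simulated data. Gene positions, matched for 32 of 32 members by gene ID, and promoters are from RefSeq on GRCm38.p6.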

Additional observations from a re-analysis of the deposited data

How the results depend on the processing

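The median log2 ratio of the members was 0.08 and ran from 0.07 with a pseudocount of 1 to 0.15 with raw counts alone. It kept its sign under every setting run, including 0.11 with TMM and 0.12 with median-of-ratios factors. The count of members over 1.5-fold higher was 0 as reported and 1 with TMM factors, with median-of-ratios factors and with the authors' deposited fold, while Oasl1 lies at 1.496. Raw counts alone left 22 members with enough counts, 13 above 1, 3 over 1.5-fold higher and 2 over 2-fold in either direction. Of all 11586 genes with enough raw counts, 5694 were above 1, and their shares past 1.5-fold and 2-fold were not calculated. The log2 ratio of Oas2 moved from below 0 to 0.046 with raw counts alone, where the interval of its ratio (0.959 to 1.11) included 1. The cause was not tested. Of single members, 32 of 32 stayed within their counting interval's half-width under TMM, median-of-ratios factors and both pseudocounts. TMM and median-of-ratios factors each shift every log2 ratio by a common amount, so they do not check the members separately. With the authors' deposited fold 30 stayed within that half-width, and with raw counts alone 14 of 22. No paired analysis was possible because each genotype has 1 library, and for the same reason no library could be left out. Depth limits Rsad2, Cmpk2, Ifi44 and Oas3 most, the 4 members with the lowest levels in CPM.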
